A study of Mus musculus with 18 samples.

Results

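The 56 genes described here encode proteins that copy DNA and divide the cell, and they were followed in RNA of mouse peritoneal macrophages. They were chosen as a list of symbols by known function, with earlier results of these data known. All 56 were found among the 23511 genes of the deposited count table. All 56 also passed the filter on low counts, which kept 16609 genes. Sorting on surface Tim-4, which macrophages resident in tissues use to bind phosphatidylserine, gave Tim-4low and Tim-4high cells. Each population came from 3 kinds of mice, with 3 libraries in each of the 6 groups. Mice with a tumor received anti-Tim-4 or an isotype control antibody. The remaining mice had no tumor and, by their labels, no treatment. The tumor was MC38-LG, of the mouse colon carcinoma line MC38, placed in the peritoneal cavity. Mice got anti-Tim-4 on day 7 after the tumor cells and were harvested on day 10, and mice without a tumor were taken on that same date, per the labels. Because mice without a tumor got no antibody, tumor and isotype antibody cannot be told apart in that comparison. The sort used Tim-4, which anti-Tim-4 binds. In any comparison with anti-Tim-4, a change within cells and a shift of cells between the sorted populations therefore cannot be told apart. By the labels each group is a triplicate, with no word on separate animals, and a p-value here therefore reflects spread between libraries that may be technical.

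A dividing cell first licenses its replication origins by loading the MCM helicase, then fires them in S phase, when DNA polymerases and the sliding clamp PCNA copy the genome. E2F transcription factors switch on many of these genes at the passage into S phase, while another set, with cyclin B and the mitotic kinases, comes on later and drives chromosome segregation and cytokinesis. Macrophages resident in the peritoneal cavity are long-lived and can renew themselves by local division. In sorted bulk samples, more dividing cells and more of these transcripts per dividing cell cannot be told apart.

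By role, 18 genes act in licensing and at the replication fork, 4 supply nucleotides, and 4 serve the replication checkpoint or the upkeep of DNA methylation. Cell cycle transcription factors number 4, and cyclins with their kinase Cdk1 number 6. The mitosis genes comprise 8 kinases and spindle checkpoint proteins, 3 centromere proteins, 7 proteins of the spindle and cytokinesis, and 2 chromosome proteins, Mki67 and Top2a. The sums below are over the 26 genes of the first 3 roles, called the replication genes, and over the 20 mitosis genes. Of the genes the results turn on, Pcna (ENSMUSG00000027342) lies at chr2:132249162-132253314 of mm10, E2f1 (ENSMUSG00000027490) at chr2:154559407-154569892, Mki67 (ENSMUSG00000031004) at chr7:135689784-135716361 and Ccne1 (ENSMUSG00000002068) at chr7:38097984-38107534, all on the minus strand. Rrm2 (ENSMUSG00000020649) lies at chr12:24708241-24714146 on the plus strand. Each value is for the whole gene.

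Promoters set these roles apart. Of the 56 genes, 46 had an entry among RefSeq promoters of GRCm38.p6, windows of 250 bases before to 50 after the gene start, in 51 windows. The letters TTTGAA, the core of the CHR element known from mitotic promoters, were in the windows of 13 of 17 mitosis genes (76.5%) on either strand, against 3 of 22 replication genes (13.6%) and 20.2% of all 27025 genes of the table. An E2F-type motif, any of TTTCCCGC, TTTGGCGC and TTTCGCGC on either strand, was in 11 of 22 replication genes (50%) and 0 of 17 mitosis genes, against 2.12% of all genes. CCAAT, the letters bound by NF-Y, was in 34 of the 46 genes (73.9%), against 41.1% of all genes. These matches describe letters and not binding.

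The 160 bases before the gene start follow for 2 genes of the MCM helicase, for Cdc20, the activator of the anaphase-promoting complex, and for Cdk1, because they show the contrast and, in Cdk1, both kinds of motif together. They are from RefSeq, GRCm38.p6, written 5′ to 3′ along the gene, with motifs in capitals (ATTGG is CCAAT on the other strand, and TTTGGCGCGAAA and TTTCGCGCCAAA are overlaps of TTTGGCGC and TTTCGCGC on opposite strands).
Mcm6, chr1:128359706-128359865, minus strand: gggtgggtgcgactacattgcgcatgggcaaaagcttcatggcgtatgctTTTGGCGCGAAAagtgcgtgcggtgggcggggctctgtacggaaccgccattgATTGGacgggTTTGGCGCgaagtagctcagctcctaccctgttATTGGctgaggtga
Mcm5, chr8:75109349-75109508, plus strand: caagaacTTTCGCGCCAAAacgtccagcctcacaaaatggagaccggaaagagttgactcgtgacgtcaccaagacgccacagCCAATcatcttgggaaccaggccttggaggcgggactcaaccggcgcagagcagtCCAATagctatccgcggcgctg
Cdc20, chr4:118437344-118437503, minus strand: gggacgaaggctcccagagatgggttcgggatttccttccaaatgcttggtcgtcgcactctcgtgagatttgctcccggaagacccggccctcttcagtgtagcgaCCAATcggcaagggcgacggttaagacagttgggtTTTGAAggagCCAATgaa
Cdk1, chr10:69352913-69353072, minus strand: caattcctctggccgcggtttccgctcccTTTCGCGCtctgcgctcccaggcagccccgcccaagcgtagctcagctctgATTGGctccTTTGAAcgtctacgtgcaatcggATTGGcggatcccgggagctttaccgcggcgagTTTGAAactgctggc
In Mcm6 the E2F-type motif TTTGGCGC began 110 and 47 bases before the gene start, and in Mcm5 TTTCGCGC began 153 bases before it. In Cdc20 TTTGAA began 18 bases before the start. In Cdk1 TTTGAA began 71 and 15 bases before it, with TTTCGCGC at 131.

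Libraries held 24530070 to 34110392 estimated gene counts. Levels below are in CPM, counts scaled to the library size after TMM scaling. Summed macrophage markers lay between 17390 and 45080 CPM. Summed epithelial markers lay between 6.04 and 27.2 CPM, with Cldn3 and Cldn7 under 1 CPM in every library. Cdh1 of that list was at 6.714 to 22.49 CPM in the tumor libraries, against 0.03773 to 0.4883 CPM in the no-tumor libraries. Krt7 went the other way, at 0.577 to 1.503 CPM with the tumor and 4.549 to 6.988 CPM without it. Epcam was at 0 to 0.462 CPM with the tumor and 0.1103 to 2.511 CPM without it. Of the Tim-4high libraries without a tumor, library 1 had the highest level of 51 of the 56 genes, with a median of 1.91 times the mean of the other 2 libraries. That ratio was 2.71 for the mitotic kinases and spindle checkpoint genes and 1.26 for licensing and replication fork genes. Library 1 without a tumor also had the most B cell marker RNA, at 1954 CPM against 196 and 258 CPM in Tim-4low cells and at 569 against 147 and 169 CPM in Tim-4high cells, and the most mast cell marker RNA, at 128 and 81.7 CPM in Tim-4low and Tim-4high cells. Of the isotype libraries, library 3 had the lowest level of 56 of 56 genes in Tim-4low cells and of 53 in Tim-4high cells. It also had the most neutrophil marker RNA, at 375 CPM (Tim-4low) and 366 CPM (Tim-4high), against 86.6 to 114 CPM in the other 4 isotype libraries, and the most T and NK cell marker RNA, at 129 and 117 CPM against 14.96 to 26 CPM. The part of these cells in the results was not tested. Values without these libraries are given where a result rests on them. Of all pairs within a group, libraries 1 and 3 of anti-Tim-4 Tim-4low cells differed most (chi-square per degree of freedom 78.68). In that group Adgre1 was at 2257, 1795 and 816.8 CPM, while Lyz2 ran the other way, at 6948, 8419 and 11990 CPM. The group enters the anti-Tim-4 comparison of populations, the antibody comparison in Tim-4low cells and the antibody interaction.

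**Figure D1:**
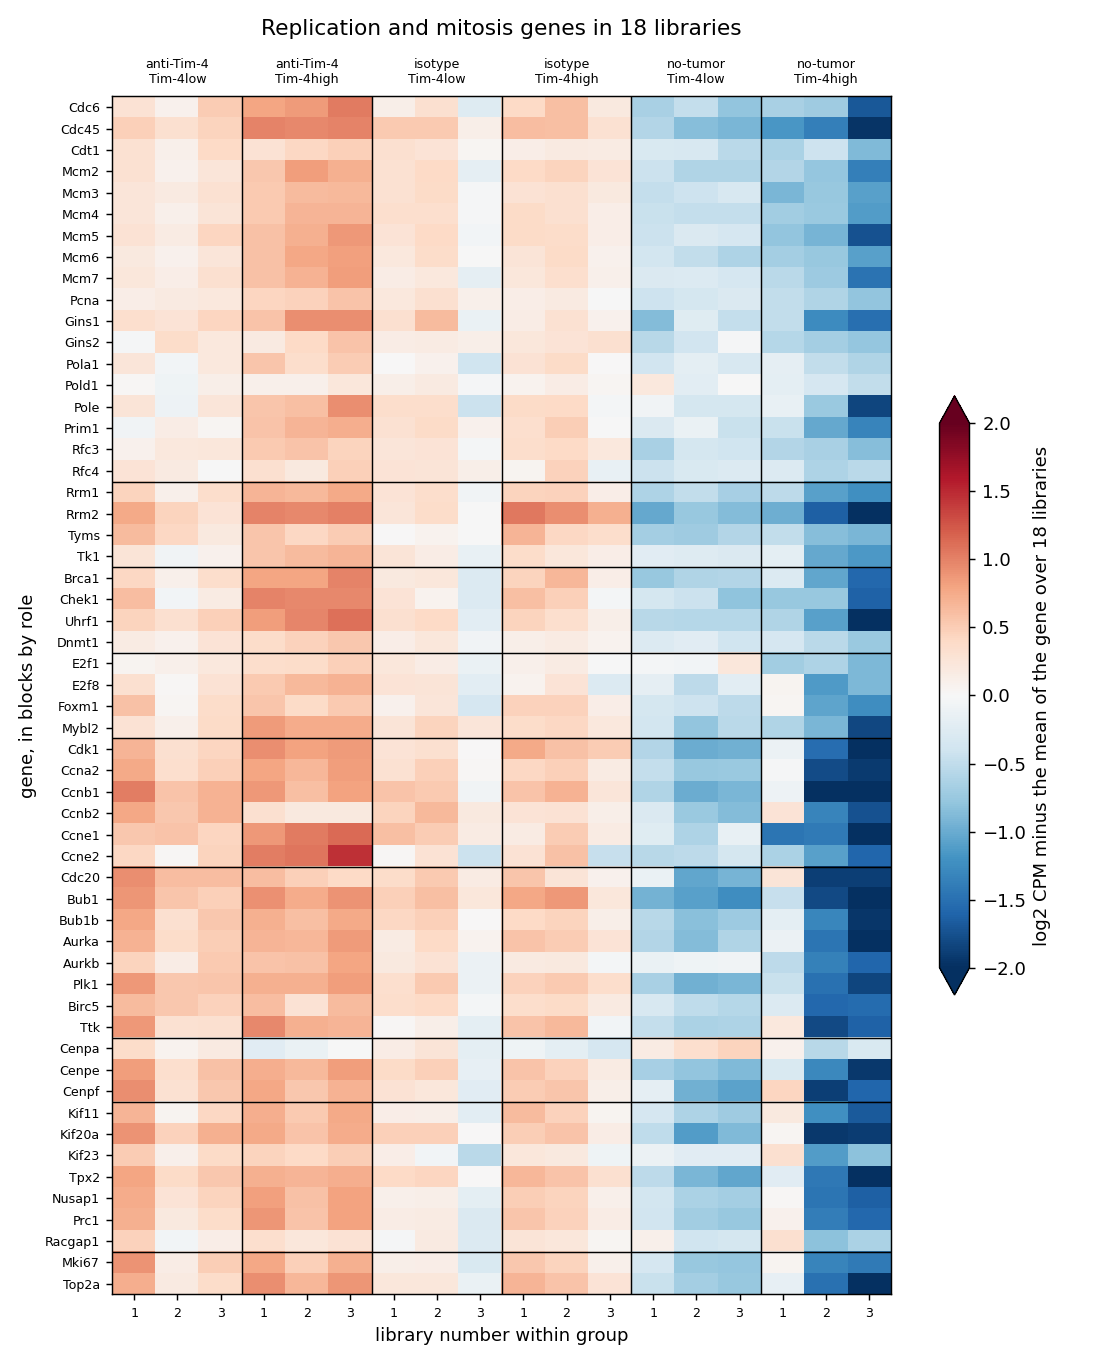
Level of each of the 56 genes in each of the 18 libraries, as log2 CPM minus the gene's mean over all libraries (colour, from -2 to 2), in blocks by role. Libraries run from anti-Tim-4 on the left through isotype to no tumor on the right, and for most genes the lowest values stand in the no-tumor libraries, where Tim-4high library 1 is higher than the other 2.

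Most of the 56 transcripts were more abundant in Tim-4high macrophages of isotype tumor mice than in those of mice without a tumor. Together they summed to 1973, 1967 and 1648 CPM in isotype Tim-4high libraries, against 1234, 764 and 630.2 CPM in no-tumor Tim-4high libraries. The replication genes summed to 979 ± 74.0 CPM with isotype and 471 ± 86.8 CPM without a tumor (SD, n = 3 each). The mitosis genes summed to 714 ± 96.4 CPM with isotype and 328 ± 200.1 CPM without a tumor (SD, n = 3 each). In edgeR's quasi-likelihood test with Benjamini-Hochberg adjustment over all 16609 genes, 51 of the 56 genes were higher with the tumor and 0 were lower at an adjusted p under 0.05. Of all genes tested, 27.3% were higher and 24.1% were lower. The median log2 fold change was 1.18 over the 56 genes and -0.01 over all genes tested, and 40 of the 51 were over 2-fold. Marker RNA of other cells moved as well: B cell markers summed to 8.62 to 69.3 CPM in isotype Tim-4high libraries, against 147 to 569 CPM in no-tumor Tim-4high libraries, and mesothelial and fibroblast markers to 9.40 to 45.6 CPM with isotype, against 0.434 to 0.604 CPM without a tumor. Summed macrophage markers were at 21400 to 22620 CPM with isotype, against 36420 to 45080 CPM without a tumor. Most of that difference was Lyz2, at 7085 to 7586 CPM with isotype and 26510 to 35850 CPM without a tumor. Csf1r was also lower. Adgre1, Cd68, Itgam and Fcgr1 were higher with isotype, with Cd68 at 914.6 to 1026 CPM against 345.4 to 382 CPM. Mertk and Cd14 overlapped. Epithelial markers summed to 9.055 to 18.17 CPM with isotype, against 7.056 to 9.525 CPM without a tumor, which overlap. The part of these cells was not tested.

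All 18 licensing and replication fork genes rose in Tim-4high cells. Mcm5, a subunit of the MCM helicase that unwinds DNA at the fork, stood at 64.9, 64.9 and 54.6 CPM in isotype libraries, against 28.8, 26.3 and 14.9 CPM in no-tumor libraries. The sets did not overlap, and its log2 fold change was 1.40 ± 0.18 (SE). Mcm3, another subunit, was at 88.4, 90.4 and 83.1 CPM with isotype, against 38.7, 42.8 and 34.1 CPM without a tumor. It had the smallest adjusted p of the 56 genes (log2 fold change 1.18 ± 0.10, adjusted p = 1.92e-07). Cdc45, which joins MCM in the active helicase, changed by 1.97 ± 0.18 (adjusted p = 3.64e-07), Mcm4 by 1.13 ± 0.11 (adjusted p = 1.05e-06) and Rfc3, part of the loader of the PCNA clamp, by 1.01 ± 0.11 (adjusted p = 2.73e-06). The smallest of these 18 rises was in Pold1, the catalytic subunit of DNA polymerase delta, at 0.42.

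All 4 nucleotide supply genes rose. Rrm2, the small subunit of ribonucleotide reductase, which makes the building blocks of DNA, was at 56.5, 52.0 and 44.9 CPM in isotype Tim-4high libraries, against 13.9, 8.80 and 4.94 CPM in no-tumor Tim-4high libraries. Its log2 fold change of 2.47 ± 0.25 was the largest of the 56 genes (adjusted p = 1.14e-06). Tyms, which makes thymidylate, rose by 1.22 ± 0.13 (adjusted p = 1.94e-06). All 4 checkpoint and methylation genes rose as well, among them Uhrf1, which brings the maintenance methyltransferase Dnmt1 to newly copied DNA. Uhrf1 was at 36.0, 33.3 and 28.5 CPM with isotype, against 17.4, 12.4 and 5.92 CPM without a tumor, with a log2 fold change of 1.45. Dnmt1 rose by 0.64.

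Of the 4 transcription factors, E2f1, Mybl2 and Foxm1 rose, by 0.82, 1.36 and 1.00 on the log2 scale, and E2f8, a repressive member of the E2F family, had 0.60 (adjusted p = 0.05). All 6 cyclin and Cdk1 genes rose. Ccne1, the cyclin of the entry into S phase, was at 5.30, 6.70 and 5.31 CPM with isotype, against 1.72, 1.78 and 0.679 CPM without a tumor, a log2 fold change of 2.05. Ccnb1, the cyclin that activates Cdk1 for mitosis, was at 17.6, 19.2 and 14.1 CPM with isotype, against 11.1, 2.57 and 2.57 CPM without a tumor, a log2 fold change of 1.64. Cdk1 itself rose by 1.65.

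All 8 mitotic kinase and spindle checkpoint genes rose, led by the checkpoint kinase Bub1 (1.92) and the polo-like kinase Plk1 (1.58). Cdc20 was at 19.8, 16.2 and 14.3 CPM with isotype, against 16.1, 3.67 and 3.66 CPM without a tumor, so the sets overlapped through library 1, and its log2 fold change was 1.10. Both chromosome proteins rose. Mki67, the proliferation marker that coats mitotic chromosomes, was at 198, 186 and 146 CPM with isotype, against 142, 54.4 and 51.3 CPM without a tumor (1.10). Top2a, the topoisomerase that untangles chromosomes, was at 137, 127 and 103 CPM with isotype, against 75.9, 30.2 and 20.5 CPM without a tumor (1.53). Of the 7 spindle and cytokinesis genes 5 rose, and of the 3 centromere genes Cenpe did. The 5 genes not called were Cenpa (0.03), Cenpf (1.02), Kif23 (0.52), Racgap1 (0.46) and E2f8.

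Without no-tumor Tim-4high library 1, the median log2 fold change of the 56 genes was 1.56. The median of the cyclin and Cdk1 genes was then 2.21, that of the mitotic kinase and checkpoint genes 2.10 and that of the licensing and fork genes 1.18. Ccnb1 was at 2.71, Cdc20 at 2.18 and Mki67 at 1.73. With the spread estimated from the compared groups alone, 41 of the 51 stayed called. Over the omission of each of the 6 libraries, 47 of the 51 calls were kept every time, and Ccnb2, Cdc20, Kif11 and Ttk were each lost in at least 1 omission.

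In Tim-4low macrophages the tumor went with a smaller set of calls. The 56 genes summed to 1765, 1846 and 1409 CPM in isotype Tim-4low libraries, against 1167, 1075 and 1070 CPM in no-tumor Tim-4low libraries. The replication genes summed to 914 ± 115 CPM with isotype and 612 ± 6.04 CPM without a tumor, and the mitosis genes to 600 ± 93.3 CPM with isotype and 392 ± 49.3 CPM without a tumor (SD, n = 3 each). Of the 56 genes 34 rose and 0 fell, where 25.2% of all genes tested rose and 24.6% fell. The median log2 fold change was 0.66 over the 56 genes and -0.02 over all genes tested, and 11 of the 34 were over 2-fold. Summed macrophage markers were at 17390 to 18630 CPM with isotype, against 26420 to 29320 CPM without a tumor. Of these, Lyz2 was lower, at 8951 to 10010 CPM with isotype and 20690 to 23560 CPM without a tumor. Cd68, Itgam and Fcgr1 were higher with isotype, with Cd68 at 503.1 to 588 CPM against 267.6 to 298.5 CPM. B cell markers summed to 18.8 to 89.3 CPM with isotype, against 196 to 1954 CPM without a tumor. Mesothelial and fibroblast markers were at 22.1 to 75.4 CPM with isotype, against 0.248 to 0.845 CPM without a tumor, and T and NK cell markers at 20.4 to 129 CPM with isotype, against 3.78 to 16.5 CPM without a tumor. Epithelial markers were at 19.12 to 27.15 CPM with isotype, against 6.038 to 14.27 CPM without a tumor, and did not overlap. That separation came mostly from Cdh1, at 14.59 to 22.49 CPM with isotype and 0.05514 to 0.4883 CPM without a tumor. Krt19 was also higher, at 0.6659 to 1.951 CPM against 0 to 0.2093 CPM. Krt7 was lower with isotype. Epcam, at 0.063 to 0.2239 CPM with isotype, overlapped, as did Krt8 and Krt18. The part of any of these cells was not tested.

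The called genes were spread over 8 of the 9 roles. They were 14 of 18 licensing and fork genes, 3 of 4 nucleotide genes, 3 of 4 checkpoint and methylation genes and 1 of 4 transcription factors, Mybl2. They were also 5 of 6 cyclin and Cdk1 genes, 5 of 8 mitotic kinase and checkpoint genes, 1 of 3 centromere genes and 2 of 7 spindle genes, with neither chromosome protein. Pcna, the sliding clamp, was at 121, 129 and 112 CPM in isotype Tim-4low libraries, against 78.0, 81.1 and 85.1 CPM in no-tumor Tim-4low libraries (log2 fold change 0.57 ± 0.08, adjusted p = 3.39e-05). Cdc45 rose by 1.17 ± 0.17 (adjusted p = 3.57e-05), Mcm3 by 0.63 ± 0.10 (adjusted p = 7.04e-05) and Mcm4 by 0.69 ± 0.11 (adjusted p = 0.000109). Among the larger rises were those of Bub1 (1.54), Ccnb1 (1.195), Kif20a, a kinesin of cytokinesis (1.15), Plk1 (1.11) and Rrm2 (1.09). Rrm2 was at 32.4, 35.2 and 27.2 CPM with isotype, against 13.4, 16.2 and 15.03 CPM without a tumor.

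Mki67 did not pass the test in Tim-4low cells, although its values did not overlap. It was at 148, 149 and 109.8 CPM with isotype, against 108, 80.9 and 79.4 CPM without a tumor (0.60, adjusted p = 0.117). Top2a had 0.75 (adjusted p = 0.0668) and Cdc20 had 1.01 (adjusted p = 0.0529). E2f1 was at 28.9, 27.3 and 22.5 CPM with isotype, against 24.0, 23.7 and 28.7 CPM without a tumor, which overlap (0.04, adjusted p = 0.757). Cenpa, the histone of centromeres, was at 27.5, 29.5 and 21.5 CPM with isotype, against 27.8, 31.1 and 33.8 CPM without a tumor (-0.24, adjusted p = 0.188). Of the 34 calls 20 were kept in all 6 omissions of 1 library. The count was lowest, at 23, without isotype Tim-4low library 2.

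**Figure D2:**
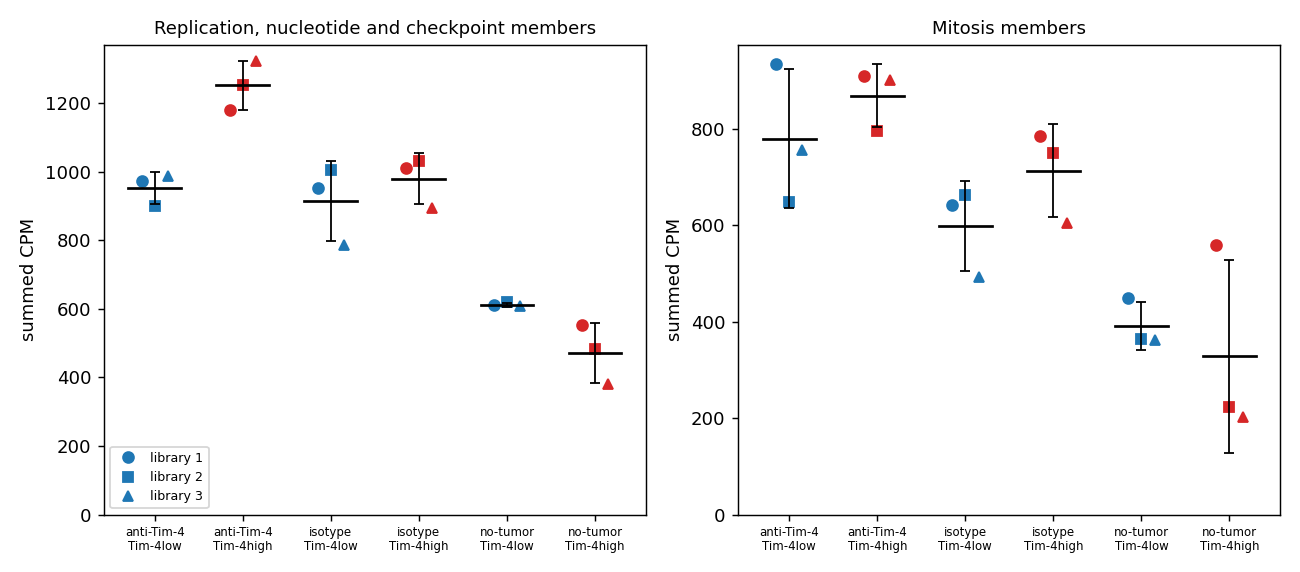
Summed CPM per library of the 26 replication, nucleotide and checkpoint genes and of the 20 mitosis genes in the 6 groups, with the mean (line) and SD (bar) of 3 libraries, Tim-4low in blue and Tim-4high in red. The means of the no-tumor groups are the lowest in both panels, and no-tumor Tim-4high library 1, at 559 CPM for the mitosis genes, stands away from the other 2, at 223 and 203 CPM.

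Whether the tumor difference itself differed between the populations was tested as an interaction, the log2 fold change of isotype over no tumor in Tim-4low minus that in Tim-4high cells. The estimate was negative for 55 of the 56 genes, with a median of -0.50 against -0.02 over all genes tested. It passed for 3 genes, each lower, and for 0 higher, where 2.21% of all genes passed lower and 1.32% higher. These were E2f1 (-0.78 ± 0.15, adjusted p = 0.00735), Rrm2 (-1.38 ± 0.34, adjusted p = 0.0329) and Mcm3 (-0.55 ± 0.14, adjusted p = 0.0379), and Ccne1 had -1.29 ± 0.34 (adjusted p = 0.0509). The interaction shares its libraries with the comparisons above and below, so it is not separate evidence.

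This count changed with the library left out. Without no-tumor Tim-4high library 1 it was 31, where 3.44% of all genes passed lower, and the median was -0.97. Ccnb1 (-1.52), Mki67 (-1.13, adjusted p = 0.0292) and Cdc20 (-1.17) were then among the called genes, and Mcm3 was not (adjusted p = 0.0519). The count was 1 without isotype Tim-4low library 1 or 3, isotype Tim-4high library 1 or 2, or no-tumor Tim-4low library 3. With library number as a block it was 14, where 6.58% of all genes passed lower. E2f1 was the 1 gene called in every omission.

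**Figure D3:**
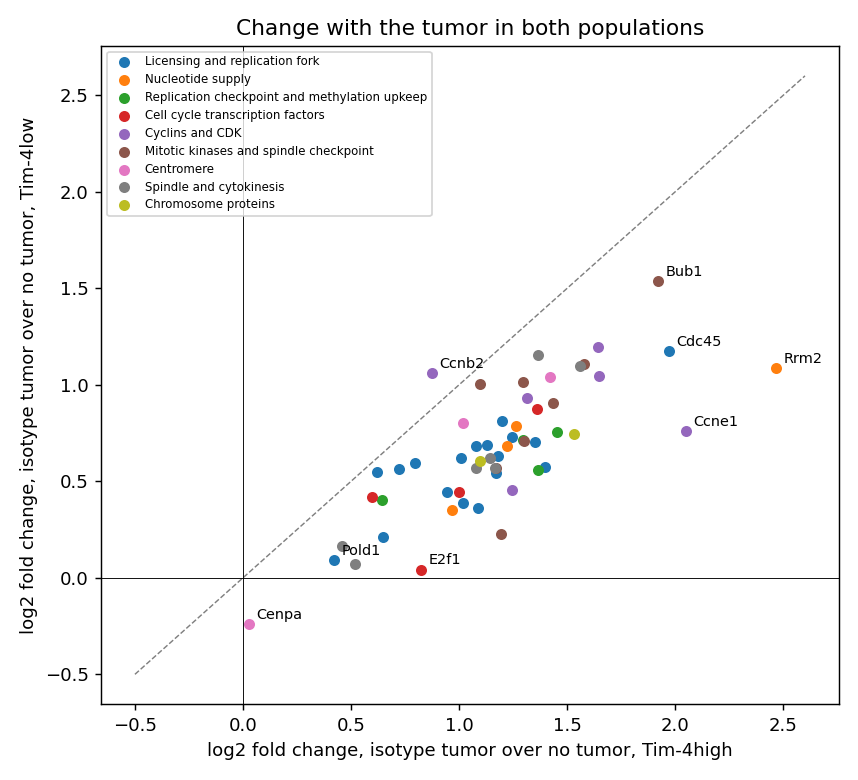
Log2 fold change of isotype tumor over no tumor for each of the 56 genes, in Tim-4high cells (x axis) and Tim-4low cells (y axis), with the dashed line where both are equal. The points for 55 genes lie below the line, with Rrm2 at 2.47 in Tim-4high and 1.09 in Tim-4low cells and E2f1 at 0.82 and 0.04.

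Without a tumor, 10 of the 18 licensing and fork genes were higher in Tim-4low than in Tim-4high macrophages. Of all 56 genes 14 were higher in Tim-4low cells and 0 lower, where 12.8% of all genes tested were higher and 11.8% lower. The median log2 ratio of Tim-4low over Tim-4high was 0.30 against 0.02 over all genes tested, and it was positive for 55 of the 56. The called genes of other roles were E2f1, Ccne1, Aurkb and Cenpa.

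E2f1, the activating transcription factor of the S phase genes, was at 24.0, 23.7 and 28.7 CPM in Tim-4low libraries, against 15.1, 16.1 and 13.2 CPM in Tim-4high libraries (0.78 ± 0.10, adjusted p = 5.82e-05). Ccne1, the cyclin that pairs with Cdk2 at S phase entry, was at 4.01, 3.07 and 4.25 CPM in Tim-4low libraries, against 1.72, 1.78 and 0.679 CPM in Tim-4high libraries (1.44 ± 0.26, adjusted p = 0.000711). Mcm3 was at 52.2, 54.7 and 58.1 CPM in Tim-4low libraries, against 38.7, 42.8 and 34.1 CPM in Tim-4high libraries (0.51 ± 0.10, adjusted p = 0.00123). In all 3 genes every Tim-4low library lay above every Tim-4high library. Aurkb, a kinase that corrects chromosome attachment, was at 22.4, 23.3 and 23.6 CPM in Tim-4low libraries, against 17.2, 9.67 and 8.23 CPM in Tim-4high libraries (0.98 ± 0.20, adjusted p = 0.00202). Mcm5 had 0.75 ± 0.18 (adjusted p = 0.00678) and Cdc45 0.68 ± 0.18 (adjusted p = 0.00934). These 6 genes were called in every omission of 1 library. The other 8 were Prim1 (0.61), Mcm7 (0.56), Cenpa (0.56), Mcm4 (0.38), Gins2 (0.37), Pold1 (0.34), Mcm6 (0.34) and Pcna (0.27).

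No gene of the spindle and cytokinesis, nucleotide supply, replication checkpoint and methylation, or chromosome protein roles was called. Mki67 was at 108, 80.9 and 79.4 CPM in Tim-4low libraries, against 142, 54.4 and 51.3 CPM in Tim-4high libraries (0.11, adjusted p = 0.838). Cdc20 was at 12.2, 6.54 and 7.09 CPM in Tim-4low libraries, against 16.1, 3.67 and 3.66 CPM in Tim-4high libraries (0.14, adjusted p = 0.859). In both genes the Tim-4high values spanned those of Tim-4low, with library 1 above and the other 2 below. Rrm2 had 0.69 (adjusted p = 0.0515).

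Leaving out Tim-4high library 1 raised the count to 46, where 11.3% of all genes were higher, and the median to 0.81, with all 56 genes positive. The calls then took in all 8 mitotic kinase and checkpoint genes, all 7 spindle genes, all 3 centromere genes and both chromosome proteins. Cdc20 had 1.21 ± 0.24 (adjusted p = 0.00226) and Mki67 0.74 ± 0.21 (adjusted p = 0.0198) in that fit. Leaving out other libraries lowered the count to 9 (Tim-4low library 2), 7 (Tim-4low library 3) and 7 (Tim-4high library 3). With the spread estimated from the compared groups alone, 4 of the 14 stayed called. With library number as a block, 25 were higher, where 17.8% of all genes were. The authors' deposited table for this comparison gives 6 of the 56 genes higher in Tim-4low cells and 0 lower at an FDR under 0.05. Among them is E2f1, whose deposited fold, turned to Tim-4low over Tim-4high, is 1.72 (FDR 7.83e-06). The share of all genes under that FDR in the authors' fit is not given here.

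In isotype tumor mice, Rrm2 and Tyms of the nucleotide genes were lower in Tim-4low than in Tim-4high cells. Of the 56 genes 2 were lower in Tim-4low cells and 0 higher, where 12.9% of all genes tested were lower and 11.3% higher, and 3 were lower and 0 higher at an unadjusted p under 0.05. DESeq2 also called 2 lower and 0 higher. The median log2 ratio was -0.15 against 0.01 over all genes tested. Rrm2 was at 32.4, 35.2 and 27.2 CPM in isotype Tim-4low libraries, against 56.5, 52.0 and 44.9 CPM in isotype Tim-4high libraries (-0.69 ± 0.23, adjusted p = 0.038). Tyms was at 10.2, 10.6 and 10.1 CPM in Tim-4low libraries, against 16.1, 13.4 and 12.8 CPM in Tim-4high libraries (-0.46 ± 0.13, adjusted p = 0.0151). Neither set overlapped. Pola1, of the polymerase that starts new strands, and Cenpa came next, at -0.32 (adjusted p = 0.113) and 0.29 (adjusted p = 0.183). The count was 1 without Tim-4low library 1, 2 or 3 or Tim-4high library 2, and 0 without Tim-4high library 1.

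In anti-Tim-4 mice 50 of the 56 log2 ratios were negative, with a median of -0.28 against -0.004 over all genes tested. The replication genes summed to 972, 899 and 986 CPM in anti-Tim-4 Tim-4low libraries, against 1180, 1253 and 1322 CPM in anti-Tim-4 Tim-4high libraries, and did not overlap. The 18 licensing and fork genes were all negative, with a median of -0.43. The test called 1 gene lower, Mcm6, and 0 higher, where 0.849% of all genes were lower and 0.542% higher. Mcm6 was at 81.2, 75.5 and 83.8 CPM in Tim-4low libraries, against 106, 121 and 125 CPM in Tim-4high libraries (-0.55 ± 0.12, adjusted p = 0.0296). It was not called in any of the 6 omissions of 1 library, where its adjusted p lay between 0.0565 and 0.15. Pcna (-0.31, adjusted p = 0.071), Mcm4 (-0.42, adjusted p = 0.074) and Mcm3 (-0.36, adjusted p = 0.0846) followed. With library number as a block, 15 genes were lower, where 3.97% of all genes were, and 10 of these 15 were licensing and fork genes, with Pcna at an adjusted p of 0.0192 and Mcm3 at 0.0203.

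**Figure D4:**
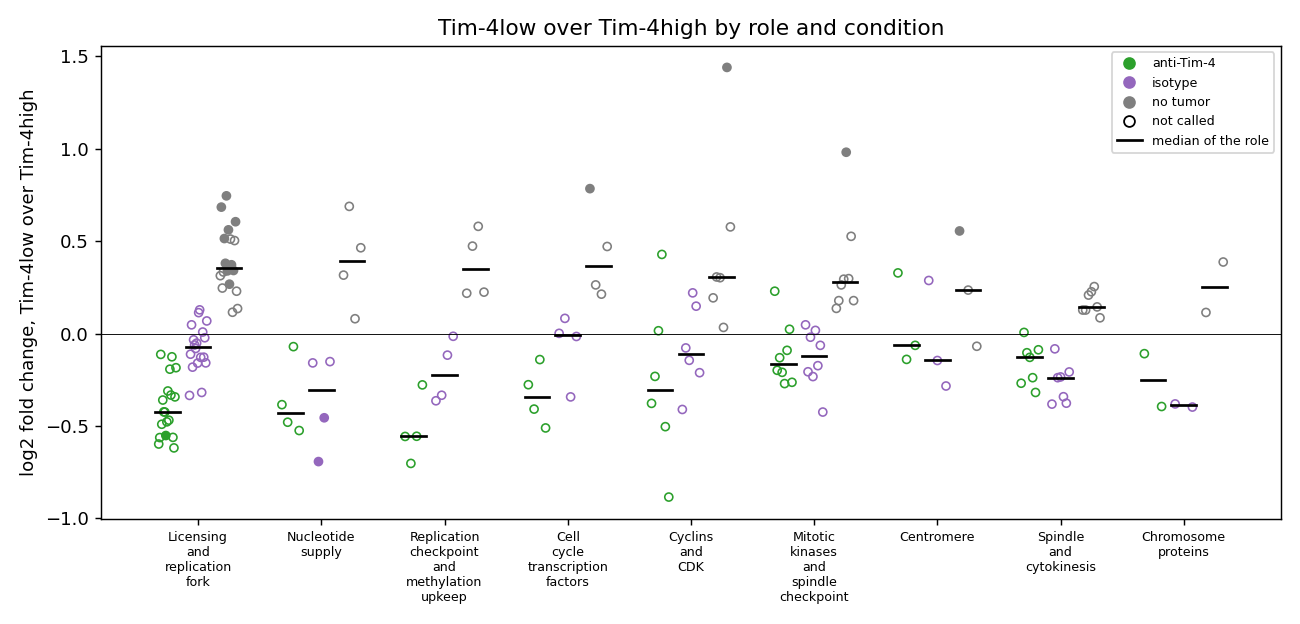
Log2 fold change of Tim-4low over Tim-4high for each gene by role, in anti-Tim-4, isotype and no-tumor mice, with filled points for genes at an adjusted p under 0.05 and a bar at each role's median. Licensing and fork genes have a median of -0.43 with anti-Tim-4, -0.07 with isotype and 0.36 without a tumor.

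With anti-Tim-4, 4 replication genes and Ccne2 were higher in Tim-4high macrophages. Whether the sort on Tim-4 gathered the same cells after anti-Tim-4 as after isotype was not tested. The replication genes summed to 1180, 1253 and 1322 CPM in anti-Tim-4 Tim-4high libraries, against 1011, 1032 and 895 CPM in isotype Tim-4high libraries. The mitosis genes summed to 911, 795 and 903 CPM with anti-Tim-4, against 786, 751 and 604 CPM with isotype. Neither sum overlapped between the antibodies. Summed neutrophil markers were at 53.8 to 65.7 CPM with anti-Tim-4, against 95.5 to 366 CPM with isotype. T and NK cell markers were at 9.33 to 13.5 CPM with anti-Tim-4, against 14.96 to 117 CPM with isotype, dendritic cell markers at 7.32 to 8.24 CPM with anti-Tim-4, against 12.4 to 70.3 CPM with isotype, and mesothelial and fibroblast markers at 4.27 to 6.80 CPM with anti-Tim-4, against 9.40 to 45.6 CPM with isotype. Macrophage markers were at 19980 to 20880 CPM with anti-Tim-4, against 21400 to 22620 CPM with isotype. Within that list Adgre1, Cd68 and Itgam were lower with anti-Tim-4, while Lyz2 and Fcgr1 were higher. Red cell and platelet markers were at 58.97 to 105.7 CPM with anti-Tim-4, against 129.3 to 179.9 CPM with isotype. Most of that sum was Pf4, at 50.19 to 98.13 CPM with anti-Tim-4 and 114.5 to 144.6 CPM with isotype. The other platelet genes, Ppbp and Itga2b, were under 1 CPM in these libraries. Of the red cell genes, Hbb-bs was at 3.27 to 4.739 CPM with anti-Tim-4 and 5.737 to 17.5 CPM with isotype. Epithelial markers went the other way, at 18.84 to 20.47 CPM with anti-Tim-4, against 9.055 to 18.17 CPM with isotype. Cdh1 made up most of that sum, at 17.71 to 19.31 CPM with anti-Tim-4 and 6.714 to 12.71 CPM with isotype. Krt7 was lower with anti-Tim-4, and Epcam was under 1 CPM in all these libraries. None of these sums overlapped, and their part was not tested. Of the 56 genes 5 were higher and 0 lower, where 4.3% of all genes tested were higher and 3.67% lower. All 56 log2 fold changes were positive, with a median of 0.33 against -0.01 over all genes tested.

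Pcna was at 141, 143 and 154 CPM with anti-Tim-4, against 114, 118 and 103 CPM with isotype (0.39 ± 0.08, adjusted p = 0.0143). Mcm6 was at 106, 121 and 125 CPM with anti-Tim-4, against 84.9, 92.1 and 75.0 CPM with isotype (0.48 ± 0.12, adjusted p = 0.0251). Ccne2, the second E-type cyclin, was at 8.70, 9.001 and 11.8 CPM with anti-Tim-4, against 5.22, 6.41 and 3.12 CPM with isotype (1.00 ± 0.26, adjusted p = 0.0332). In these 3 genes every anti-Tim-4 library lay above every isotype library. Dnmt1, the maintenance DNA methyltransferase, was at 104, 111 and 117 CPM with anti-Tim-4, against 87.3, 90.4 and 84.3 CPM with isotype (0.34 ± 0.10, adjusted p = 0.0438). Mcm3 had 0.34 ± 0.10 (adjusted p = 0.0438). E2f1 was at 31.5, 31.8 and 34.3 CPM with anti-Tim-4, against 26.3, 27.7 and 24.6 CPM with isotype (0.31, adjusted p = 0.0684). No mitosis gene was called. Mki67 was at 233.7, 189.8 and 222 CPM with anti-Tim-4, against 198, 186 and 146 CPM with isotype, which overlap (0.28, adjusted p = 0.593). Rrm2 was at 54.5, 52.9 and 54.8 CPM with anti-Tim-4, against 56.5, 52.0 and 44.9 CPM with isotype (0.08, adjusted p = 0.854).

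This count was lower in every omission of 1 library. It was 4 without anti-Tim-4 library 1, 0 without anti-Tim-4 library 3, isotype library 1 or isotype library 3, 1 without anti-Tim-4 library 2 and 3 without isotype library 2. The authors' deposited table for this comparison gives 31 of the 56 genes higher and 0 lower at an FDR under 0.05. It lists Mcm6 with a fold of 1.40 (FDR 3.47e-05) and Ccne2 with a fold of 2.00 (FDR 0.00101). E2f1 has a fold of 1.24 there (FDR 0.0124) and Mki67 a fold of 1.22 (FDR 0.0759). The share of all genes under that FDR in the authors' fit is not given here, so 31 cannot be read against it.

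In Tim-4low macrophages no gene of the 56 was called between anti-Tim-4 and isotype, where 0.223% of all genes tested were higher and 0.102% lower. At an unadjusted p under 0.05, 1 gene was higher and 0 lower, and DESeq2 called 0. The median log2 fold change was 0.23 against -0.02 over all genes tested. It was 0.02 for the 18 licensing and fork genes and 0.38 for the 7 spindle and cytokinesis genes. Mki67 was at 254, 152 and 192 CPM in anti-Tim-4 Tim-4low libraries, against 148, 149 and 109.8 CPM in isotype Tim-4low libraries (0.56, adjusted p = 0.474). Tyms had 0.40 (adjusted p = 0.21), Kif23 0.46 (adjusted p = 0.487) and Nusap1, a spindle protein, 0.49 (adjusted p = 0.519). Pcna was at 114, 118 and 121 CPM with anti-Tim-4, against 121, 129 and 112 CPM with isotype, which overlap.

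The interaction of antibody with population, the log2 fold change of anti-Tim-4 over isotype in Tim-4low minus that in Tim-4high cells, was called for no gene of the 56, where 1.67% of all genes were higher and 1.26% lower. At an unadjusted p under 0.05, 5 genes were lower and 1 higher, and DESeq2 called 1 lower. All 18 licensing and fork genes had negative estimates, with a median of -0.32, while all 7 spindle and cytokinesis genes had positive ones, with a median of 0.11. Pcna came nearest to the threshold, at -0.42 ± 0.11 (adjusted p = 0.0532), followed by Mcm6 at -0.50 (adjusted p = 0.103). With library number as a block, 4 genes were lower, all of them licensing and fork genes, where 7.31% of all genes were, and Pcna had an adjusted p of 0.0114. The count of lower genes was 1 without anti-Tim-4 Tim-4low library 3 and 2 without isotype Tim-4low library 3.

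**Figure D5:**
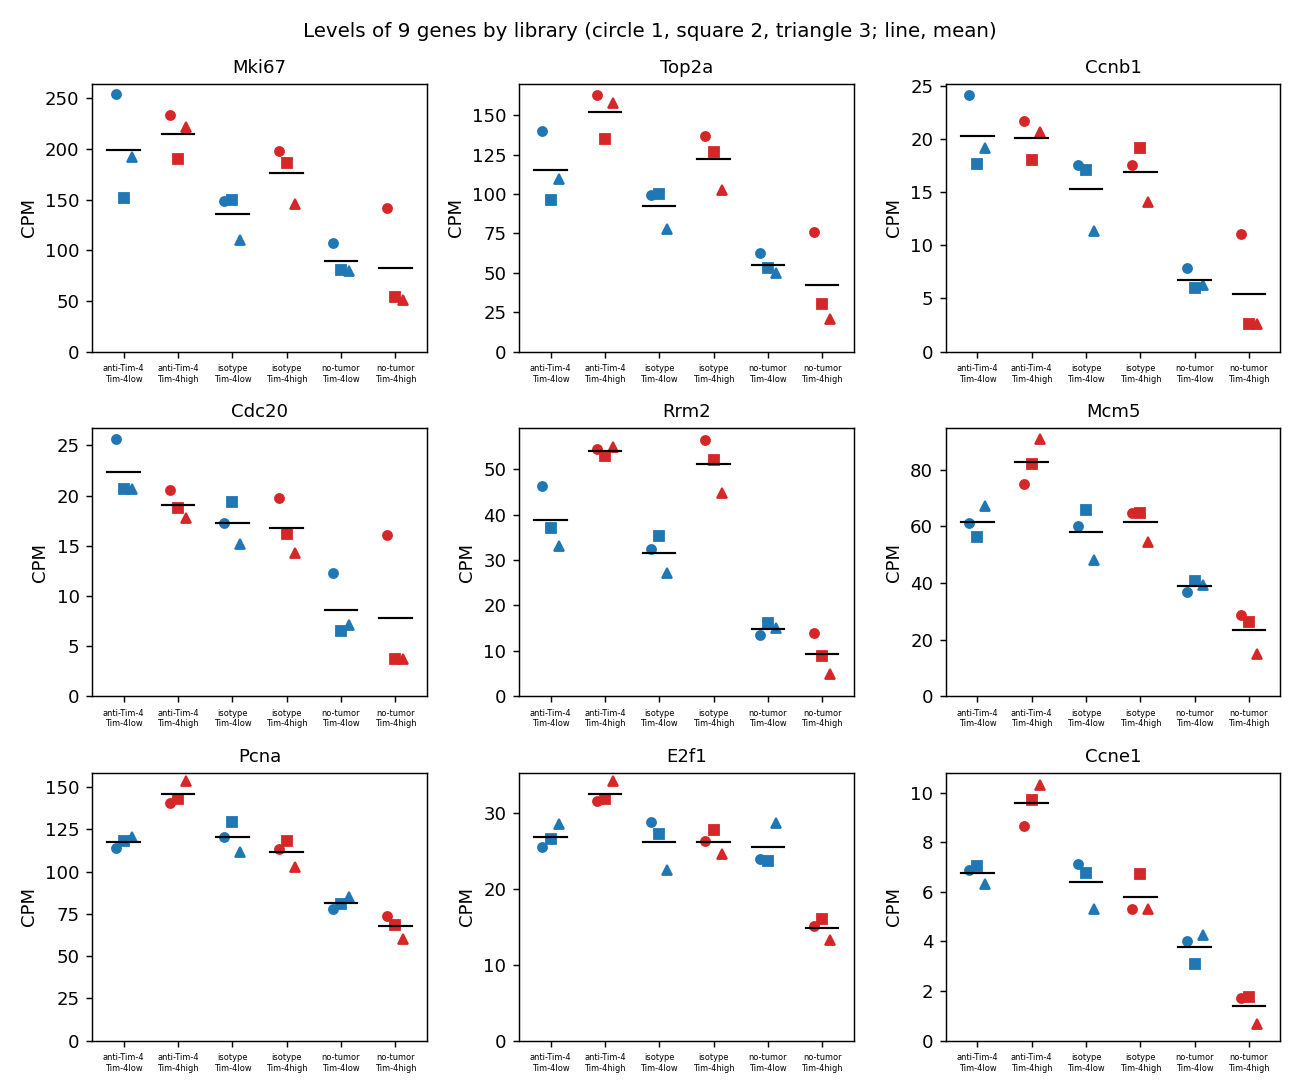
CPM per library of Mki67, Top2a, Ccnb1, Cdc20, Rrm2, Mcm5, Pcna, E2f1 and Ccne1 in the 6 groups (circle, library 1; square, library 2; triangle, library 3), with a line at the group mean. Pcna lies between 141 and 154 CPM in anti-Tim-4 Tim-4high libraries and between 103 and 118 CPM in isotype Tim-4high libraries, while Cdc20 in no-tumor Tim-4high library 1 is at 16.1 CPM against 3.67 and 3.66 CPM in the other 2.

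On a scale that divides by transcript length (TPM), Pcna was the most abundant of the 56 genes in all 6 groups. Its means were 154 TPM in anti-Tim-4 Tim-4low, 182 in anti-Tim-4 Tim-4high, 154 in isotype Tim-4low, 132 in isotype Tim-4high, 115 in no-tumor Tim-4low and 93.2 in no-tumor Tim-4high cells. Mki67 has a long transcript of 10061 bases, and its high CPM came to 39.9 TPM in anti-Tim-4 Tim-4high, 31.1 in isotype Tim-4high and 16.6 in no-tumor Tim-4high cells. For 44 of the 56 genes the same transcript led in all 18 libraries, and for 55 the leading transcript was a protein-coding one. The exception was Cenpa, which had a median of 26.6% of its estimated counts on protein-coding transcripts. Its leading transcript is annotated as a target of nonsense-mediated decay. Counted on protein-coding transcripts alone, the Cenpa ratio of Tim-4low over Tim-4high without a tumor was 0.54 ± 0.26 and was no longer called (adjusted p = 0.156).

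Other genes of the cycle were taken from lists written by function. Over all genes tested, the shares that rose and fell with the tumor were 27.3% and 24.1% in Tim-4high and 25.2% and 24.6% in Tim-4low cells. Of 45 further replication genes 40 rose and 1 fell with the tumor in Tim-4high cells, and 28 rose and 1 fell in Tim-4low cells. Among them were Dbf4, the activator of the origin-firing kinase, at 14.6 ± 1.33 CPM with isotype and 6.602 ± 0.2497 CPM without a tumor in Tim-4high cells (SD, n = 3 each; 1.14, adjusted p = 3.33e-07), and Gmnn, which blocks relicensing of origins (1.26). Of 59 further mitosis genes 51 rose in Tim-4high and 27 in Tim-4low cells, and 1 fell in each. Mad2l1, a spindle checkpoint protein, was at 25.9 ± 1.17 CPM with isotype and 10.2 ± 2.73 CPM without a tumor in Tim-4high cells (1.34). With anti-Tim-4 in Tim-4high cells, 8 of the 45 replication genes and 1 of the 59 mitosis genes rose and none fell, where 4.3% of all genes rose, and in Tim-4low cells none of either list was called. Slbp, which binds the stem-loop of histone mRNA, was at 51.1 ± 1.57 CPM with anti-Tim-4 and 39.9 ± 0.636 CPM with isotype (0.36, adjusted p = 0.00457), and Rpa2, part of the single-strand binding protein, was at 17.8 ± 1.07 CPM with anti-Tim-4 and 12.4 ± 0.759 CPM with isotype (0.52, adjusted p = 0.0068).

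Other lists had called genes in both directions, in shares that can be read against those over all genes. Of the 34 tested histone genes, 7 rose and 6 fell with the tumor in Tim-4high cells, with a median log2 fold change of 0.10, and 1 rose and 7 fell in Tim-4low cells, with a median of -0.53. Of 13 CDK inhibitor and growth-arrest genes, 5 rose and 2 fell with the tumor in Tim-4high cells, and 5 rose and 3 fell in Tim-4low cells. Cdkn1c, which encodes the inhibitor p57, was at 0.576 ± 0.278 CPM with isotype and 8.07 ± 3.33 CPM without a tumor in Tim-4high cells (-3.80, adjusted p = 1.01e-06), and its log2 fold change was -3.46 in Tim-4low cells. Cdkn2a, of the INK4a and ARF inhibitors, had 0.838 ± 0.421 CPM in no-tumor Tim-4low and 9.73 ± 2.49 CPM in no-tumor Tim-4high cells (-3.57, adjusted p = 0.000469). With anti-Tim-4 in Tim-4high cells 3 of the 13 fell, where 3.67% of all genes did, among them the anti-proliferative gene Btg2, at 101 ± 36.4 CPM with anti-Tim-4 and 304 ± 45.2 CPM with isotype (-1.58, adjusted p = 0.0175). Of 23 genes for G1 cyclins, CDKs and pocket proteins, 12 rose and 3 fell with the tumor in Tim-4high cells, where E2f2 was at 27.7 ± 2.99 CPM with isotype and 4.74 ± 3.73 CPM without a tumor (2.54). Ccnd2, a D-type cyclin, had 119 ± 23.7 CPM in no-tumor Tim-4low and 24.95 ± 13.4 CPM in no-tumor Tim-4high cells (2.25, adjusted p = 7.65e-05). Of 15 growth factor and self-renewal genes, 5 rose and 4 fell with the tumor in Tim-4high cells, with Csf2rb, the shared receptor chain for GM-CSF, at 762 ± 27.7 CPM with isotype and 223 ± 25.5 CPM without a tumor (1.78).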

How the data were processed

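The authors deposited estimated counts, not normalized, for genes and for transcripts, and p-values, FDR values and signed linear folds for 2 comparisons. STAR, DESeq2 and mm10 are named, without versions, in the submitters' processing notes. How reads were quantified, with which annotation and strand setting, is not given in the sources used here. Counts of genes that overlap others or share reads with near-identical copies are therefore uncertain.

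Estimated counts were rounded. filterByExpr left out 6902 genes, and edgeR 4.0.16 (R 4.3.3, limma 3.58.1) fitted all 6 group means, using TMM factors, and its quasi-likelihood test had 12 residual degrees of freedom. Fold changes are log2 ± SE, first-named group over second, and p-values were adjusted by Benjamini-Hochberg over 16609 genes. TPM used GENCODE M21 transcript lengths. All 18 libraries were used, and replicates differed beyond counting noise in every pair.

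The gene list, the other lists and the tests were chosen with earlier results of these data known. Named genes were those with the smallest p in a comparison, up to 6 with full statistics, further called genes by fold change, and 12 genes spread over the roles. Library numbers were checked for pairing. Within a condition, libraries that share a number had deviations from their group means correlated at 0.16 to 0.49 in 9 pairs, each over 0.1. Libraries of different numbers within a condition were at -0.43 to 0.21 in 18 pairs, so the ranges overlap. Isotype Tim-4low library 1, for example, was at 0.22 with Tim-4high library 1 and 0.21 with library 2. Numbers were taken to pair libraries within, not across, conditions (-0.29 to 0.12 across). Alternatives were other scaling and filtering, DESeq2 1.42.0, the compared groups alone, the block on number, protein-coding transcripts, stricter thresholds and leaving out libraries.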

Additional observations from a re-analysis of the deposited data

Results flagged for a closer look

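The tumor difference differed between the populations, by the test of the interaction itself, for 3 of the 56 genes, each lower. Of all genes tested, 2.21% passed lower and 1.32% higher. E2f1 had an interaction of -0.78, with a log2 fold change of isotype over no tumor of 0.04 in Tim-4low and 0.82 in Tim-4high cells. Rrm2 had -1.38, with 1.09 in Tim-4low and 2.47 in Tim-4high cells. Mcm3 had -0.55, with 0.63 in Tim-4low and 1.18 in Tim-4high cells. E2f1 was called in every omission of 1 library, and Rrm2 and Mcm3 were not.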

How the results depend on the processing

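Counts of called genes are given with the main value first. Tim-4low over Tim-4high without a tumor (14 higher) gave 4 with the compared groups alone, 25 with the replicate block, 43 without both no-tumor libraries 1, 6 at an adjusted p under 0.01, 1 over 2-fold, and 7 to 46 over omissions of 1 library. With isotype (2 lower) it gave 3 with the block, 1 without both isotype libraries 3, 0 at 0.01, 0 over 2-fold, and 0 to 2 over omissions. With anti-Tim-4 (1 lower) it gave 7 lower with DESeq2, 12 lower and 1 higher with the compared groups alone, 15 with the block, 0 at 0.01, 0 over 2-fold and 0 in every omission. Isotype over no tumor in Tim-4low cells (34) gave 21 at 0.01, 11 over 2-fold and 23 to 37 over omissions, and in Tim-4high cells (51) it gave 41 with the compared groups alone and 47 to 55 over omissions. In Tim-4high cells, anti-Tim-4 against isotype (5) gave 10 with DESeq2, 25 with the compared groups alone, 3 on protein-coding transcripts (an alternative chosen after seeing the data), 0 without both isotype libraries 3, 0 at 0.01, 0 over 2-fold and 0 to 4 over omissions. The tumor interaction (3 lower) gave 8 with DESeq2, 1 with the compared groups alone, 14 with the block, 30 without both no-tumor libraries 1, 1 without both isotype libraries 3, 1 at 0.01, 1 over 2-fold and 1 to 31 over omissions. The antibody interaction (0 lower) gave 1 with DESeq2, 1 with the compared groups alone, 4 with the block and 0 to 2 over omissions. The cause of these changes was not tested. The share of all genes called in the same fit is not given here for DESeq2, the compared groups alone or the omission of both libraries of a number. A higher or lower count of the listed genes in those fits therefore cannot be told apart from a change over all genes. No paired analysis was possible across conditions because numbers were taken to pair libraries only within one. No called gene changed direction under any alternative run.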
